A study of Mus musculus with 2 samples.

Results

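Hepatocyte-like tumour nuclei with high Ccnd3 are 339 of the 17169 barcodes in a single-nucleus RNA sequencing data set of mouse hepatocellular carcinoma. They were chosen by levels measured in the same nuclei. Each had at least 3000 unique molecular identifiers (UMIs, 1 per captured RNA molecule), at most 5% of them mitochondrial, and at least 10 UMIs of Ccnd3 per 10000. Each also had at least 3 UMIs in sum of the tumour genes Gpc3, H19, A2m, Gucy2c and Igf2, and at least 10 UMIs per 10000 of the hepatocyte genes Cps1 and Apob together. At most 2 UMIs were allowed in sum of the ductal genes Asz1, Klhl13, Tinag, Slc35f1 and Pdgfd, and at most 2 of the immune, endothelial and stellate genes Ptprc, Stab2 and Reln. Of the 17169 barcodes, 7908 passed the limits on depth and mitochondrial UMIs, 5326 of these passed the limits on other lineages, 2788 of these met the hepatocyte criterion, 459 of these the tumour criterion and 339 also the Ccnd3 criterion. The 339 nuclei were thus 4.29% of the 7908 (exact binomial 95% interval 3.85 to 4.76%).

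The nuclei came from frozen liver of mice with this carcinoma, out of a dissected area of tumour left behind, called minimal residual disease in the series title. The labels give 2 samples in 1 group, MRD-HCC 1 and MRD-HCC 2, and state no strain, age, treatment or genotype. Libraries were 3' gene expression libraries of the 10x Genomics droplet system. The 17169 barcodes were all distinct and name no sample, so the matrix was 1 pooled sample with no replicate and no tumour-free group. No difference below could be tested across samples, and intervals are 95% intervals that cover counting error only. Levels are UMIs summed over the nuclei of a class per 1000000 of its UMIs (CPM).

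Hepatocytes make plasma proteins, bile acids and urea, and divide this work by zone between the portal and the central vein. In hepatocellular carcinoma some of these functions are kept and others lost, and genes of the fetal liver such as Afp, Gpc3, H19 and Igf2 are often switched on again. D-type cyclins, of which Ccnd3 encodes cyclin D3, bind the kinases Cdk4 and Cdk6, which phosphorylate the retinoblastoma protein and so allow entry into the cell cycle. Pkhd1, the gene of a cilium protein of bile duct cells, marks ductal epithelium.

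As reference served 3 classes cut from the same barcodes by the same depth and lineage limits. Periportal hepatocyte nuclei (1233) and pericentral hepatocyte nuclei (379) met the hepatocyte criterion but had under 5 UMIs of Ccnd3 per 10000 and at most 2 UMIs of the tumour genes, and were split by zonal genes. Pkhd1-high nuclei (1468) had at least 10 UMIs of Pkhd1 per 10000 and missed the hepatocyte criterion. Their definition does not make them normal duct cells. In them Ccnd3 stood at 5240 and Gpc3 at 201 CPM, far above both hepatocyte classes, while Gucy2c, at 2.97 CPM, did not. Whether they are tumour or normal duct was not tested. That the high-Ccnd3 hepatocyte-like nuclei are tumour was not tested either, and the name rests on the criteria. The words tumour nuclei below mean the high-Ccnd3 hepatocyte-like nuclei alone. The high-Ccnd3 tumour nuclei had a median of 6976 UMIs, against 12285 in periportal, 15660 in pericentral and 7394.5 in Pkhd1-high nuclei. Free RNA was read from 49929 barcodes of at least 500 and under 850 UMIs that the authors' filter had left out. From 62 markers of other cell types its share was estimated at 25.04% of the UMIs of the high-Ccnd3 tumour nuclei, and at 20.3, 13.6 and 23.1% in periportal, pericentral and Pkhd1-high nuclei. The caller Scrublet marked 16 of the 339 as doublets, droplets with more than 1 nucleus (4.72%, exact interval 2.72 to 7.55%), against 1.54, 0.792 and 1.23% of the 3 reference classes.

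**Figure D1:**
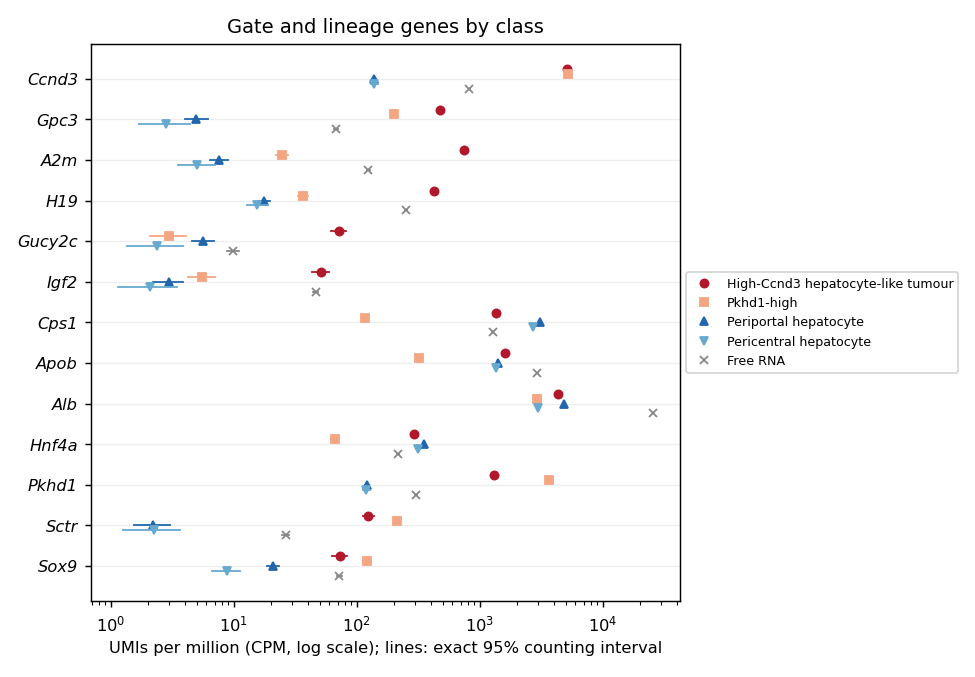
Level of the genes that chose the nuclei and of lineage genes in the 4 classes of nuclei and in free RNA, as CPM on a log scale, with exact 95% counting intervals as lines. Ccnd3 lies at the same level in the high-Ccnd3 tumour nuclei and the Pkhd1-high nuclei, while A2m, H19, Gucy2c and Igf2 lie far higher in the tumour nuclei and Pkhd1 lies between the hepatocyte and the Pkhd1-high levels.

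The genes that chose the nuclei are given as a description. Ccnd3 stood at 5163 CPM (5081 to 5245), against 138 in periportal and 139 in pericentral hepatocyte nuclei. In Pkhd1-high nuclei, whose definition does not use Ccnd3, it stood at 5240.2 CPM (5199.5 to 5281), so high Ccnd3 was not particular to the hepatocyte-like nuclei. Per nucleus, Ccnd3 ran from 10.7 to 304 UMIs per 10000 with a median of 42.9, and the Pkhd1-high median was 46.6. Gpc3, a glypican on the surface of fetal liver and carcinoma cells, stood at 479 CPM, against 4.97 in periportal, 2.82 in pericentral and 201 in Pkhd1-high nuclei. A2m, the gene of the protease inhibitor alpha-2-macroglobulin, stood at 748 CPM, against 7.64 in periportal, 5.05 in pericentral and 24.9 in Pkhd1-high nuclei. The maternally expressed imprinted RNA H19 stood at 424 CPM, against 17.6 in periportal, 15.6 in pericentral and 36.4 in Pkhd1-high nuclei. Gucy2c, a receptor guanylate cyclase of the intestine, stood at 71.6 CPM, against 5.67 in periportal, 2.37 in pericentral and 2.97 in Pkhd1-high nuclei. The fetal growth factor gene Igf2 stood at 51.2 CPM, against 2.95 in periportal, 2.08 in pericentral and 5.52 in Pkhd1-high nuclei. In free RNA H19 stood at 251 and Igf2 at 46.4 CPM, levels that at the estimated share would add 62.97 and 11.6 CPM to the tumour nuclei. The hepatocyte genes Cps1 and Apob together stood at 29.8 UMIs per 10000 over the tumour nuclei, and free RNA at the estimated share would give 10.6 of them, above the limit of 10. A nucleus of that share could thus pass the hepatocyte criterion on free RNA alone.

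Few nuclei carried the whole set of tumour genes. A UMI of Gpc3 was found in 261 of the 339 nuclei, of H19 in 198, of A2m in 175, of Gucy2c in 112 and of Igf2 in 52. All 5 genes were found in 14 nuclei and 4 of them in 34, while 77 nuclei had UMIs of 1 gene alone and passed through that gene. With every nucleus thinned to 3000 UMIs, 59.00% of the tumour nuclei had a Gpc3 UMI (53.6 to 64.3%; 76.99% before thinning), against 2.19%, 1.06% and 29.2% of periportal, pericentral and Pkhd1-high nuclei.

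The nuclei next to each limit are given as a description. At the Ccnd3 limit, 25 members had 10 to under 15 UMIs per 10000 and 29 nuclei that met every other criterion had 5 to under 10. A2m stood at 305 CPM just inside and 691 just outside, Gpc3 at 177 and 228, H19 at 621 and 162, and Pkhd1 at 713 and 536. At the hepatocyte limit, 123 members had 10 to under 15 UMIs of Cps1 and Apob per 10000, and 184 nuclei that met every other criterion had 5 to under 10. There Pkhd1 stood at 2167 CPM just inside and 3489.9 just outside, and Prr16 at 957 and 279. At the tumour limit, 103 members had 3 or 4 UMIs of the 5 genes, and 267 nuclei that met every other criterion had 1 or 2 and 212 had 0. Ccnd3 stood at 5039, 5620.0 and 5133 CPM in those 3 sets. All 3 had passed the Ccnd3 criterion, which set this level in part, so it cannot show whether the sets were alike. Some genes outside the criteria, described below, fell over the 3 sets in that order. Ren1 stood at 37.85, 21.03 and 4.41 CPM, Dab1 at 98.9, 42.05 and 25.7, and Olfm2 at 57.4, 22.05 and 13.95. Sctr did not fall in that order, at 158.7, 126.2 and 173.3 CPM.

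The label was checked on genes that the criteria of the high-Ccnd3 tumour nuclei did not use. Hnf4a, a transcription factor of hepatocytes, stood at 294 CPM, against 353 in periportal, 315 in pericentral and 66.2 in Pkhd1-high nuclei. Free RNA at the estimated share would give 54.5 CPM of it. The gap to Pkhd1-high nuclei was set in part by the hepatocyte criterion, which that class missed. In cluster 3, described below, Hnf4a stood at 149.8 CPM, against 55.9 from free RNA. Albumin could not be used for this check. Alb stood at 4338 CPM (4263 to 4413), under the 6417 CPM that free RNA at the estimated share would give. Its UMIs could thus not be told apart from free RNA. The 6 hepatocyte markers outside the criteria, Alb and Hnf4a among them, summed to 7869 CPM. In periportal, pericentral and Pkhd1-high nuclei the sums were 8849, 6324 and 4234 CPM. Free RNA at the estimated share would give 9261 CPM of them, so their sum could not be told apart from free RNA either. All 12 cholangiocyte markers were also detected, with a summed level of 2309.8 CPM, against 257, 229 and 5146 CPM in periportal, pericentral and Pkhd1-high nuclei and 1033 in free RNA. Pkhd1, which chose the Pkhd1-high nuclei, made up 1313 CPM of that sum and 3669 CPM of the sum in Pkhd1-high nuclei. The gap to the Pkhd1-high sum was thus set in part by how that class was cut. After thinning to 3000 UMIs, 77.6% of the tumour nuclei had a Pkhd1 UMI (72.8 to 81.9%), against 28.95% and 31.7% of periportal and pericentral nuclei.

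Markers of blood, vessel and connective tissue cells were low. For immune, endothelial and stellate cells this was set in part by the limit on Ptprc, Stab2 and Reln. The summed levels of the marker lists of 9 other cell types (sinusoidal and other endothelial, stellate, fibroblast, smooth muscle, macrophage, B and plasma, mesothelial and erythroid cells) lay between 4.68 and 235 CPM, each under its full level in free RNA. At the estimated share, which was itself set by 8 of these lists and that of T and NK cells, free RNA would give 67.9 CPM of other endothelial markers against 107 counted, 17.7 of B and plasma cell markers against 39.1, and 24.9 of smooth muscle markers against 30.8. Sinusoidal endothelial markers stood at 79.6 CPM against 78.1, and the other 5 lists lay under it. Macrophage markers summed to 78.2 CPM with 9 of 9 detected, against 488 in free RNA. Markers of T and NK cells summed to 24.7 CPM with 6 of 7 detected and Ncr1 at 0, against 23.9 in free RNA, 5.99 at the estimated share and 3.41 to 17.6 in the other classes. Cnn1, Cd79b, Lrrn4 and Slc4a1 were at 0 as well. Y-linked genes summed to 620.2 CPM, against 641 in periportal, 639 in pericentral and 721 in Pkhd1-high nuclei, and 92.6% of the tumour nuclei had a Y-linked UMI.

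Sequence upstream of Ccnd3 and Ren1 is shown because Ccnd3 chose the nuclei and Ren1 stood furthest above the other classes. Ccnd3 lies at chr17:47505051-47599691 on the plus strand (mm10, GENCODE M21), and RefSeq (GRCm38.p6) gives 2 starts. Counts from 3' ends do not show which start was used. The 250 bases before the first start are chr17:47504801-47505050, those before the second chr17:47593217-47593466, and those before the Ren1 start chr1:133350424-133350673, all on the plus strand. Capitals mark the letters CATTCC (bound by TEAD factors) at position -17 of the second Ccnd3 start and TATAAA (the TATA box) at position -29 of Ren1.
Ccnd3 start 1: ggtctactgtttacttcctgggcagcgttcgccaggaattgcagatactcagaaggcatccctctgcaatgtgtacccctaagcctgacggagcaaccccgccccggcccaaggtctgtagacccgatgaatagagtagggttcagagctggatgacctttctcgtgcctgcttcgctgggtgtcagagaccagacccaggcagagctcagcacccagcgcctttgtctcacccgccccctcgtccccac
Ccnd3 start 2: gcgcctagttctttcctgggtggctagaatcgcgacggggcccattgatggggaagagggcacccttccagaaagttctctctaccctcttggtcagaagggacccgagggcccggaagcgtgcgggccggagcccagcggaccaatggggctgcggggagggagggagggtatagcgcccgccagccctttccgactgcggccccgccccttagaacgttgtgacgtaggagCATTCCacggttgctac
Ren1: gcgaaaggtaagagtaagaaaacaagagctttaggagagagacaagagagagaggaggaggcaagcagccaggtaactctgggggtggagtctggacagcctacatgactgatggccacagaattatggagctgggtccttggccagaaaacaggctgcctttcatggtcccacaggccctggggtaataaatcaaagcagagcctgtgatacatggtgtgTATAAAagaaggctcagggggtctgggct
Motifs were searched on both strands: TATAAA, the TATA box, then TGANTCA of the AP-1 factors, then CAAAGTCCA of the HNF4 factors, then ACGTG as the core of hypoxia sites, then CATTCC as the core of TEAD sites. Over 95 promoters of 63 of the 94 genes that stood above all 3 classes, 9.47, 8.42, 2.11, 13.7 and 16.8% held them in that order, and over all 32851 promoters 12.4, 6.75, 0.384, 16.6 and 12.6% did. The HNF4 share of 2.11% is 2 promoters, and some of the 95 promoters belong to the same gene. The first Ccnd3 start held none of the 5. These matches describe letters in the window.

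More genes were higher than lower in the tumour nuclei against each of the other classes. Genes of a mean of at least 10 CPM over both classes were compared, without the genes of the criteria, and a gene counts as higher or lower where the log2 ratio after adding 1 CPM to both levels passed 1, a 2-fold difference. Against periportal nuclei 1246 of 9566 genes were higher (13.0%) and 631 lower (6.60%). Centred on the median ratio of all genes, those shares were 10.4 and 8.29%. Against pericentral nuclei 1390 of 9570 were higher (14.5%) and 738 lower (7.71%). Against Pkhd1-high nuclei 1026 of 9863 were higher (10.4%) and 500 lower (5.07%). The median log2 ratio over all genes compared was 0.15, 0.15 and -0.02 in that order, and the list medians below stand against those shifts. A gene low in a class could pass the 10 CPM limit only through a high level in the other, so the counts of the lists describe the genes that passed and are not counts over whole lists. The tumour nuclei met the hepatocyte criterion and the Pkhd1-high nuclei missed it. Higher levels of hepatocyte genes than in Pkhd1-high nuclei were thus set in part by how the classes were cut.

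Of the 9093 genes compared with all 3 classes, most of those that set the tumour nuclei apart from hepatocytes were shared with the Pkhd1-high nuclei. In 745 genes (8.19%) the tumour nuclei were at least 2-fold above both hepatocyte classes and within 2-fold of the Pkhd1-high nuclei. In 224 (2.46%) they were above both hepatocyte classes and still 2-fold below Pkhd1-high nuclei. In 482 (5.3%) they stood with the hepatocytes and 2-fold above the Pkhd1-high nuclei, and in 244 (2.68%) between the 2, below the hepatocytes and above the Pkhd1-high nuclei. Above all 3 classes were 94 genes (1.03%), and below all 3 was 1 gene (0.011%). Of the 94, 13 were encoded in mitochondria, and the median share of mitochondrial UMIs was 0.624% in the tumour nuclei against 0.264, 0.248 and 0.4105% in periportal, pericentral and Pkhd1-high nuclei. With at most 1% mitochondrial UMIs in every nucleus, 67 genes stood above all 3 classes and 0 of them were mitochondrial, and without cluster 4, described below, 120 did. These classes share the tumour nuclei as 1 side, so the patterns are not independent of each other.

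**Figure D2:**
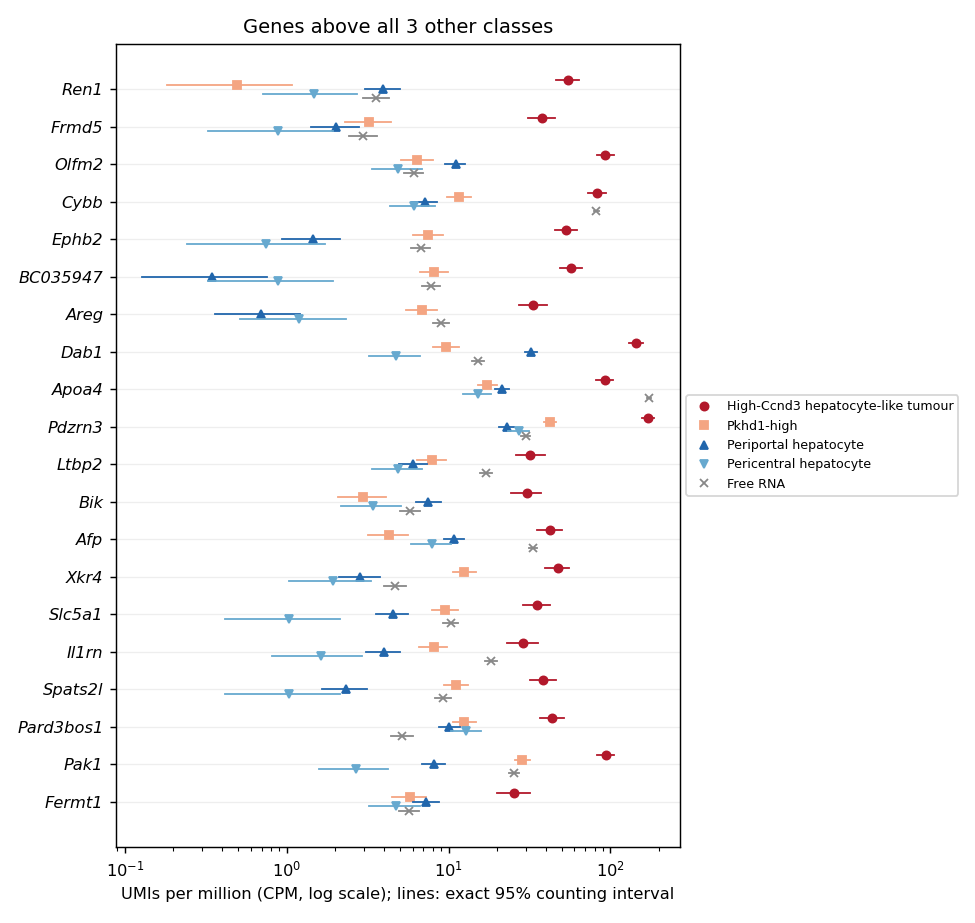
Level of the 20 genes with the largest smallest ratio of the high-Ccnd3 tumour nuclei to the 3 other classes, as CPM on a log scale, with exact 95% counting intervals as lines. The tumour nuclei lie to the right of the 3 other classes for each gene, and free RNA reaches or passes them for Cybb and Apoa4.

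The 20 genes highest above all 3 classes, mitochondrial genes aside, were led by Ren1. Ren1, the gene of renin, the kidney protease that starts the angiotensin cascade, stood at 54.5 CPM, against 3.93 in periportal, 1.48 in pericentral and 0.495 in Pkhd1-high nuclei (163 UMIs). That is 13.9-fold (10.4 to 18.7), 36.7-fold (19.5 to 78.03) and 110.2-fold (49.5 to 305) above periportal, pericentral and Pkhd1-high nuclei, the last from 6 UMIs. It was found in 46 of the 339 nuclei and the 10 highest nuclei held 57.1% of its UMIs. Reads of its near-identical copy Ren2, which some mouse strains carry, would be counted as Ren1. After thinning, 8.55% of the tumour nuclei (5.804 to 12.1%) had a Ren1 UMI, against 1.298%, 0.264% and 0.136% of the other classes.

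Some of the 20 were spread over many nuclei. Olfm2, of the secreted olfactomedin family, stood at 92.95 CPM, against 11.05 in periportal, 4.897 in pericentral and 6.43 in Pkhd1-high nuclei, in 138 nuclei. Dab1, the adaptor of the reelin receptors, stood at 144 CPM, against 32.3 in periportal, 4.75 in pericentral and 9.65 in Pkhd1-high nuclei, in 154 nuclei. Pak1, a kinase under Rac and Cdc42, stood at 93.6 CPM, against 8.098 in periportal, 2.67 in pericentral and 28.5 in Pkhd1-high nuclei, in 148 nuclei. These 3 had 21.2%, 20.7% and 18.6% of their UMIs in their 10 highest nuclei. Pdzrn3, an E3 ubiquitin ligase, was found in 124 nuclei at 171 CPM, against 42.5 in the next class, the Pkhd1-high nuclei. BC035947 was found in 110 nuclei, at 57.2 CPM against 0.347, 0.8904 and 8.16. Bik, a killer protein of the Bcl-2 family, stood at 30.4, 7.52, 3.41 and 2.97 CPM in the same order of classes.

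Others came from few nuclei. Areg, the gene of the Egfr ligand amphiregulin, stood at 33.4 CPM, against 0.694 in periportal, 1.19 in pericentral and 6.84 in Pkhd1-high nuclei, in 33 nuclei with 72% of its UMIs in 10 of them. Ephb2, a receptor of ephrins, stood at 53.2 CPM against 1.45, 0.742 and 7.504, in 46 nuclei. The fetal liver protein gene Afp stood at 42.5 CPM against 10.8, 7.86 and 4.29, in 33 nuclei, so most tumour nuclei had no Afp UMI. Of the 15 genes of the list of fetal liver and imprinted genes that the criteria did not use, 5 reached the level for a comparison with periportal nuclei, and a gene low in hepatocytes could reach it only where it was high in the tumour nuclei. Besides Afp these were Peg3, an imprinted gene, at 459, 37.5, 34.4 and 1700.5 CPM in the order of classes above, Hmga2, a chromatin protein, at 38.8, 2.37, 1.93 and 31.1 CPM, and the RNA-binding protein genes Igf2bp2 at 70.2, 31.5, 9.05 and 245 CPM and Igf2bp3 at 32.8, 8.56, 6.38 and 14.1 CPM. Peg3 and Igf2bp2 were thus lower than in Pkhd1-high nuclei, and Meg3 was lower than in pericentral nuclei. Summed over the 15 genes the level was 658 CPM, against 97.1, 171 and 2005 CPM. Xkr4 and Frmd5 rested on the fewest. Without its highest nucleus the log2 ratio of Xkr4 to Pkhd1-high nuclei moved from 1.83 to 1.20. Frmd5 had 113 UMIs in 6 nuclei, 85 of them in 1 nucleus, and its log2 ratio to Pkhd1-high nuclei moved from 3.20 to 1.30 without that nucleus.

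The other 8 of the 20 stood at 25.4 to 92.6 CPM in the tumour nuclei. Cybb, a subunit of the phagocyte NADPH oxidase, stood at 82.6 CPM against 7.12 to 11.6 in the other classes and 81.9 in free RNA, which at the estimated share would give 20.5 CPM. The macrophage markers that could accompany it summed to 78.2 CPM in the tumour nuclei and 69.2 in Pkhd1-high nuclei, and their part in the Cybb level was not tested. Apoa4, an apolipoprotein of intestine and liver, stood at 92.6 CPM, with 43.3 CPM to be had from free RNA. Il1rn, the antagonist of the interleukin-1 receptor, stood at 28.8 CPM, Slc5a1, the intestinal glucose transporter Sglt1, at 35.1, Ltbp2, a matrix protein, at 32.1, Fermt1, an integrin activator of epithelia, at 25.4, and Spats2l at 38.5. Pard3bos1, at 43.8 CPM, lies antisense to Pard3b, and its reads may belong to that gene where strand was not used in counting.

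Genes low against every other class were few and sparse. The rule for them named 10 genes, and Rap1gap, which switches off the GTPase Rap1, came first among them at 4.68 CPM (2.56 to 7.85) against 16.7, 16.6 and 16.99, from 14 UMIs. Lrig3, a membrane protein with leucine-rich repeats, stood at 22.1 CPM (17.1 to 28.1) against 65.2, 66.2 and 35.9. The receptor gene Notch1 stood at 14.7 CPM (10.7 to 19.8) against 23.7, 23.9 and 36.6. Ttc39aos1, Pald1, Sh3bp2, Ubxn2b, Sorbs2os and Rfx1 stood at 4.35 to 53.8 CPM.

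The 8 genes highest above both hepatocyte classes among those within 2-fold of the Pkhd1-high nuclei were chosen by that pattern and are given as a description. Sctr, the secretin receptor of bile duct cells, stood at 124 CPM, against 2.198 in periportal, 2.23 in pericentral and 213 in Pkhd1-high nuclei, which is 56.4-fold (40.4 to 81.02) above periportal nuclei. The axon guidance gene Sema5a stood at 308 CPM, against 7.92 in periportal, 4.01 in pericentral and 453 in Pkhd1-high nuclei. Glis3, a zinc finger factor of ciliated epithelia, stood at 353 CPM, against 14.9 in periportal, 9.497 in pericentral and 416 in Pkhd1-high nuclei. Nrg2 and Erbb4, a neuregulin and a neuregulin receptor, were both among these genes, at 123 and 119 CPM against at most 2.31 and 4.34 in hepatocytes and 78.3 and 157 in Pkhd1-high nuclei. Vil1, the villin of the brush border, stood at 49.8 CPM against 80.98 in Pkhd1-high nuclei and at most 1.27 in hepatocytes. St6galnac2 and Sh3tc2 completed the 8, at 91.6 and 84.3 CPM. After thinning, 21.2% of the tumour nuclei (17.01 to 25.98%) had a Sctr UMI, against 1.38%, 0.528% and 32.8% of periportal, pericentral and Pkhd1-high nuclei.

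A second set of 8 was chosen for a level within 2-fold of the hepatocytes and far above the Pkhd1-high nuclei. That last class had missed the hepatocyte criterion, which set the gap in part. Hnf4aos, the transcript antisense to Hnf4a, stood at 257 CPM, against 345 in periportal, 290.1 in pericentral and 13.3 in Pkhd1-high nuclei, 19.3-fold (16.3 to 23.1) above the last, and reads of the overlapping Hnf4a could be counted in it. After thinning, 41.6% of the tumour nuclei (36.3 to 47.04%) had a UMI of it, against 53.4%, 51.2% and 3.88%. Prr16 stood at 1462 CPM, against 1889 in periportal, 1696 in pericentral and 85.6 in Pkhd1-high nuclei. The metabolic enzymes of this set were Hgd, of tyrosine breakdown, at 274, 306, 469 and 23.5 CPM, and Ftcd, of histidine breakdown, at 225, 442, 159 and 19.5 CPM, in the same order of classes. Slc47a1, a transporter that exports cations, stood at 116, 129, 194 and 7.504 CPM. Mctp2, Rims4 and Slc17a2 stood at 119, 133 and 111 CPM, against 6.18, 7.83 and 8.82 in Pkhd1-high nuclei.

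**Figure D3:**
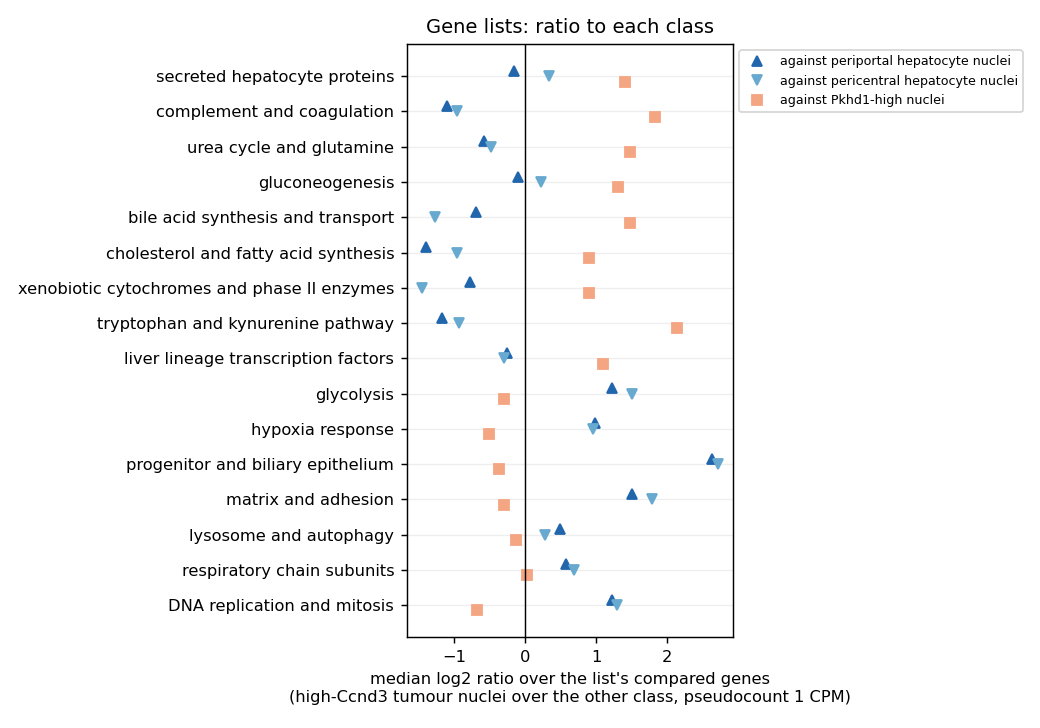
Median log2 ratio over the compared genes of 16 gene lists, high-Ccnd3 tumour nuclei over each of the 3 other classes, after adding 1 CPM. Lists of hepatocyte functions lie right of 0 against Pkhd1-high nuclei and mostly left of it against hepatocytes, while glycolysis, progenitor and biliary epithelium, and matrix lie right of 0 against hepatocytes and near 0 against Pkhd1-high nuclei. Pkhd1-high nuclei had missed the hepatocyte criterion, which sets the place of the hepatocyte lists against them in part.

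Ccnd3 was the high D cyclin, and Ccnd1 and Ccnd2 were both low. The list holds 15 genes, 1 of which chose the nuclei, and of 7 compared with periportal nuclei 2 were higher and 0 lower. Ccnd1, the D cyclin of regenerating hepatocytes, stood at 7.02 CPM, against 11.3 in periportal, 19.7 in pericentral and 6.35 in Pkhd1-high nuclei, and Ccnd2 at 7.02, 4.801, 2.08 and 4.12 CPM in that order, both at or under what free RNA would give (9.33 and 7.94 CPM). The kinase gene Cdk4 stood at 26.1, 15.4, 16.6 and 37.3 CPM and Cdk6 at 79.2, 88.3, 152 and 120.1 CPM. Rb1, the retinoblastoma protein gene, stood at 158, 66.1, 60.1 and 219 CPM, and its relatives Rbl1 at 25.1, 13.5, 9.05 and 38.4 CPM and Rbl2 at 37.4, 37.5, 51.2 and 47.9 CPM. Of the inhibitors, Cdkn1a (p21) stood at 43.5, 17.01, 13.2 and 30.6 CPM and Cdkn1b (p27) at 31.4, 23.8, 20.5 and 34.3 CPM. Cdkn1c stood at 2.67, 0.463, 1.19 and 0.742 CPM, and without its highest nucleus its log2 ratio to periportal nuclei moved from 1.33 to 0.68. The INK4 genes Cdkn2a, Cdkn2b, Cdkn2c and Cdkn2d stood at 2.34, 3.34, 4.01 and 1.34 CPM. Against Pkhd1-high nuclei 0 of 7 compared genes were past 2-fold in either direction. Over all genes compared with that class 10.4% were higher and 5.07% lower, so 0 of 7 is near those shares. Against periportal nuclei the shares over all genes were 13.0% and 6.60%.

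Division genes lay between the hepatocytes and the Pkhd1-high nuclei. Summed over all 26 genes of DNA replication and mitosis the level was 405 CPM, against 162 in periportal, 133 in pericentral and 731 in Pkhd1-high nuclei. With periportal nuclei 5 of the 26 reached the level for a comparison, some only through the tumour nuclei, so their count is not given. Top2a, the topoisomerase of dividing cells, stood at 22.7 CPM, against 3.93 in periportal, 2.97 in pericentral and 68.1 in Pkhd1-high nuclei. Mki67, the proliferation marker, stood at 16.4, 2.02, 1.48 and 33.8 CPM in that order. In clusters 1 and 2 of the tumour nuclei alone, 216 nuclei, the log2 ratio to periportal nuclei was -0.12 for Top2a and 0.58 for Mki67, against 2.27 and 2.52 over all 339 nuclei.

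Lineage factors of the liver were lower, higher or within 2-fold of the hepatocytes, gene by gene. Of 22 transcription factors compared with periportal nuclei 4 were lower, among them Nr1i3, Esr1 and Foxa3, and 3 higher, among them Sox4 and Sox9, factors of bile duct cells, with a median log2 ratio of -0.25. Over all genes compared with periportal nuclei 6.60% were lower and 13.0% higher. Against Pkhd1-high nuclei 11 of 21 were higher and 0 lower, among them Hnf4a, Cebpa, Foxa2, Onecut1 and Prox1, with a median of 1.10. Cebpa stood at 28.8, 34.2, 37.5 and 9.65 CPM in the order used above and Sox9 at 72.9, 20.9, 8.76 and 121 CPM.

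Secreted plasma proteins were near the hepatocyte level as counted, and this reading turned on free RNA. Of 21 genes compared with periportal nuclei 2 were higher (Apoa4 and Apoe) and 1 lower (Cp, ceruloplasmin), with a median log2 ratio of -0.15. With the free RNA profile taken out of each class the median was -1.45, and against pericentral nuclei it moved from 0.34 to -1.28. Alb, Apoa1, Apoa2, Serpina1c and Ambp stood at or under the level that free RNA would give. Against Pkhd1-high nuclei 19 of 21 were higher and 0 lower, with a median of 1.40 as counted. With free RNA taken out it was 7.40, where 21 of the 21 genes came to 0 in Pkhd1-high nuclei and 5 did in the tumour nuclei, so that the value depends on the 1 CPM added. The genes of complement and coagulation were lower than in hepatocytes, with 13 of 23 lower and 0 higher against periportal nuclei, a median of -1.10 as counted and of -1.52 with free RNA taken out. C8b, a part of the membrane attack complex, stood at 39.5 CPM, against 152 in periportal, 162 in pericentral and 12.7 in Pkhd1-high nuclei, and Plg, plasminogen, at 389.5, 1119, 1052 and 130.1 CPM. C3, the central complement protein, was the gene higher than in pericentral nuclei, at 2371, 1207, 1071 and 1179 CPM. Against Pkhd1-high nuclei 22 of 23 were higher, with a median of 1.83 as counted and 6.92 with free RNA taken out, which left 22 genes at 0 in Pkhd1-high nuclei. For both lists the gap to that class was set in part by the hepatocyte criterion, which it missed. Of all genes compared, 13.0% were higher and 6.60% lower than in periportal nuclei, 14.5% and 7.71% than in pericentral nuclei. Against Pkhd1-high nuclei these shares were 10.4% and 5.07%.

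Genes of nitrogen and glucose metabolism were higher than in Pkhd1-high nuclei, and some of them were lower than in hepatocytes. The first gap was set in part by the hepatocyte criterion, which Pkhd1-high nuclei missed. In the urea cycle and glutamine list 1 higher and 2 lower of 13 against periportal nuclei were counted, with a median of -0.58, 4 of 13 were lower and 1 higher than in pericentral nuclei, with a median of -0.47, and 12 of 15 were higher than in Pkhd1-high nuclei. Arg1, the arginase of the urea cycle, stood at 321 CPM, against 785 in periportal, 441 in pericentral and 59.4 in Pkhd1-high nuclei. In the gluconeogenesis list 1 higher and 1 lower of 14 were counted against periportal nuclei, near the shares over all genes, and 10 of 15 were higher than in Pkhd1-high nuclei. Those shares were 13.0% higher and 6.60% lower against periportal, 14.5% and 7.71% against pericentral, and 10.4% and 5.07% against Pkhd1-high nuclei. Pck1, which makes phosphoenolpyruvate from oxaloacetate, stood at 806 CPM, against 629 in periportal, 148 in pericentral and 62.8 in Pkhd1-high nuclei. Ppargc1a, a coactivator of gluconeogenesis and mitochondrial genes, stood at 1019 CPM, against 100.5 in periportal, 65.7 in pericentral and 1415 in Pkhd1-high nuclei. It was thus high in both classes with high Ccnd3.

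Glycolysis genes were higher than in hepatocytes. Of 19 compared, 12 were higher and 2 lower than in periportal nuclei, and 13 were higher and 2 lower than in pericentral nuclei. Among all genes compared, 13.0% were higher and 6.60% lower than in periportal nuclei, and 14.5% and 7.71% than in pericentral nuclei. Against periportal nuclei the median log2 ratio was 1.22 as counted and 3.09 with free RNA taken out. That left 6 of the 19 genes at 0 in periportal nuclei, so that 3.09 depends on the 1 CPM added. Hk2, the hexokinase of tumours and muscle, stood at 146 CPM, against 10.6 in periportal, 5.34 in pericentral and 271 in Pkhd1-high nuclei. The platelet-type phosphofructokinase gene Pfkp stood at 210.3, 10.4, 7.27 and 348 CPM in that order, and the pyruvate kinase gene Pkm at 109, 21.1, 11.1 and 235 CPM. Among the clusters described below, Hk2 stood at 26.0 CPM in cluster 2 and 361 CPM in cluster 3. In the hypoxia list 7 of 14 were higher than in periportal nuclei and 1 lower, with a median of 0.99. Ndrg1 stood at 783 CPM, against 55.8 in periportal, 34.4 in pericentral and 2331 in Pkhd1-high nuclei, and Epas1, the gene of a hypoxia-inducible factor, was the lower gene, at 76.9, 185, 189 and 46.3 CPM.

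Lipid synthesis was lower than in periportal hepatocytes in most of its genes. Of 27 cholesterol and fatty acid synthesis genes 20 were lower and 1 higher, with a median of -1.39. Against pericentral nuclei 12 were lower and 1 higher, with a median of -0.95. Fasn, fatty acid synthase, stood at 38.1 CPM, against 101 in periportal, 85.3 in pericentral and 19.8 in Pkhd1-high nuclei. Msmo1 and Fdft1, which act further along the sterol pathway, stood at 73.2, 248, 228 and 36.5 CPM and 49.2, 182, 148 and 27.8 CPM in that order. The higher gene was Scd1, a desaturase, at 245 CPM, at or under the 296 CPM that free RNA would give. Of 18 genes of lipid uptake and storage 6 were higher and 1 lower than in periportal nuclei, and 5 were higher and 2 lower than in pericentral nuclei. The shares over all genes were 13.0% higher and 6.60% lower for periportal nuclei, and 14.5% and 7.71% for pericentral nuclei. Vldlr, the receptor of very low density lipoprotein, stood at 89.3, 4.51, 8.61 and 189 CPM, and Lpl, lipoprotein lipase, at 108, 10.9, 10.2 and 48.5 CPM. Of the fatty acid oxidation genes 1 higher and 1 lower of 17 were counted against periportal nuclei, no more than the shares over all genes, Pdk4 being the higher gene.

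Bile acid, xenobiotic and tryptophan genes were lower than in hepatocytes as well. Against Pkhd1-high nuclei several counts turned on cluster 4, described below: 9 of 24 genes of cholesterol and fatty acid synthesis were higher and 1 of 24 without that cluster, and 14 of 18 genes of bile acid synthesis and transport against 10 of 17. Of those 18 bile acid genes 6 were lower than in periportal and 11 lower than in pericentral nuclei, with Abcc4, an exporter of the basal membrane, the higher gene in both. Lower genes made up 6.60% of all genes compared with periportal and 7.71% of those compared with pericentral nuclei. Higher genes made up 10.4% of those compared with Pkhd1-high nuclei. Abcb11, the canalicular bile salt export pump, stood at 137 CPM, against 448 in periportal, 642 in pericentral and 20.4 in Pkhd1-high nuclei, and Cyp7b1, an oxysterol hydroxylase, at 244, 842, 3219.7 and 61.8 CPM in that order. Without cluster 4 the log2 ratio of Cyp7b1 to Pkhd1-high nuclei was 0.98 in place of 1.97. Of the xenobiotic enzymes 7 of 25 were lower and 2 higher than in periportal nuclei, with a median of -0.77. Against pericentral nuclei 18 of 26 were lower, with a median of -1.45 as counted and -4.30 with free RNA taken out. That left 11 of the 26 at 0 in the tumour nuclei, so that -4.30 depends on the 1 CPM added. As counted, 12 of 31 stood at or under what free RNA would give. Members of the Cyp2c family resemble each other in sequence, so reads could be split between them. Of 11 tryptophan and kynurenine genes 6 were lower and 1 higher than in periportal nuclei, and 10 of 10 were higher than in Pkhd1-high nuclei, against 8 of 10 without cluster 4. Among them was Kyat3, a kynurenine aminotransferase gene, whose log2 ratio to Pkhd1-high nuclei was 0.13 without cluster 4 in place of 2.28. Tdo2, the enzyme that opens tryptophan breakdown in liver, stood at 80.6 CPM, against 239 in periportal, 283 in pericentral and 31.5 in Pkhd1-high nuclei.

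Zonal genes were compared with both zones, without the genes that split the hepatocytes. Of 11 pericentral and Wnt feedback genes compared with pericentral nuclei 6 were lower and 0 higher, with a median of -1.10. Lgr5, the Wnt-responsive receptor, stood at 17.7 CPM, against 2.37 in periportal, 160.3 in pericentral and 67.6 in Pkhd1-high nuclei, and in clusters 1 and 2 alone its log2 ratio to periportal nuclei was -0.29 in place of 2.47. Of 7 periportal genes compared with periportal nuclei 2 were lower and 0 higher, with a median of -0.71. Against the other zone, 2 of 10 pericentral and Wnt feedback genes were higher and 0 lower than in periportal nuclei, with a median of 0.51. Of 7 periportal genes 3 were higher and 0 lower than in pericentral nuclei, with a median of 0.17. Over all genes 13.0% were higher than in periportal and 14.5% than in pericentral nuclei, and 6.60% and 7.71% were lower in that order. The zone of the nuclei was not tested.

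Ductal and matrix genes were higher than in hepatocytes. Of 24 progenitor and biliary genes 16 reached the level for a comparison with periportal nuclei, some only through the tumour nuclei. Of these 13 were higher and 0 lower, with a median of 2.63, or 1.76 with no filter on low values. Against Pkhd1-high nuclei 2 were higher and 2 lower of 17, with a median of -0.37. Summed over all 24 genes, Pkhd1 among them, the level was 3658 CPM, against 1294 in periportal, 1836 in pericentral and 6405 in Pkhd1-high nuclei. Cdh1, E-cadherin, stood at 119.7 CPM, against 8.503 in periportal, 3.12 in pericentral and 62.6 in Pkhd1-high nuclei, Bicc1, an RNA-binding protein of ductal cells, at 484, 34.1, 26.1 and 771 CPM in that order, and Epcam at 32.1, 2.95, 3.86 and 19.05 CPM. Of 24 matrix and adhesion genes 18 reached that level, some only through the tumour nuclei. Of these 10 were higher and 1 lower than in periportal nuclei. Summed over all 24 the level was 3071 CPM, against 2319, 2356 and 3040 CPM in the same order. All genes compared with periportal nuclei were higher in 13.0% and lower in 6.60%. Col4a5, a basement membrane collagen, stood at 134, 11.6, 6.83 and 558 CPM, and Itgb8, an integrin that activates transforming growth factor beta, at 76.9, 3.12, 3.86 and 96.8 CPM. Fn1, fibronectin, was higher than in Pkhd1-high nuclei, at 831, 1073, 1069 and 124 CPM.

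Of the growth factor genes, Egfr was the lower gene against hepatocytes. It encodes the epidermal growth factor receptor and stood at 1702 CPM, against 9286 in periportal, 7966 in pericentral and 348 in Pkhd1-high nuclei, that is 5.46-fold (5.31 to 5.61) lower than in periportal and 4.88-fold (4.69 to 5.09) higher than in Pkhd1-high nuclei. Its ligand gene Areg was among the genes above all 3 classes. Erbb3 stood at 92.3, 79.4, 100.3 and 8.16 CPM in that order, and Nrg4, a neuregulin, at 209, 291, 80.1 and 13.9 CPM. Of 24 lysosome and autophagy genes 7 were higher and 0 lower than in periportal nuclei, led by Tfeb, the transcription factor of lysosome genes, at 951 CPM, against 60.9 in periportal, 47.2 in pericentral and 2158 in Pkhd1-high nuclei. Of 26 respiratory chain subunits 3 were higher and 0 lower than in periportal nuclei, a share of higher genes close to that over all genes, with a median of 0.57, and 8 were higher and 0 lower than in pericentral nuclei, with a median of 0.69. Higher genes made up 13.0% of all genes compared with periportal and 14.5% of those compared with pericentral nuclei. Il34, a ligand of the macrophage receptor Csf1r, stood at 130.1 CPM, against 5.78 in periportal, 3.71 in pericentral and 111 in Pkhd1-high nuclei, and the iron hormone gene Hamp at 522, 2405, 2324 and 175 CPM. Without cluster 4 the log2 ratio of Hamp to Pkhd1-high nuclei was 0.54 in place of 1.57.

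**Figure D4:**
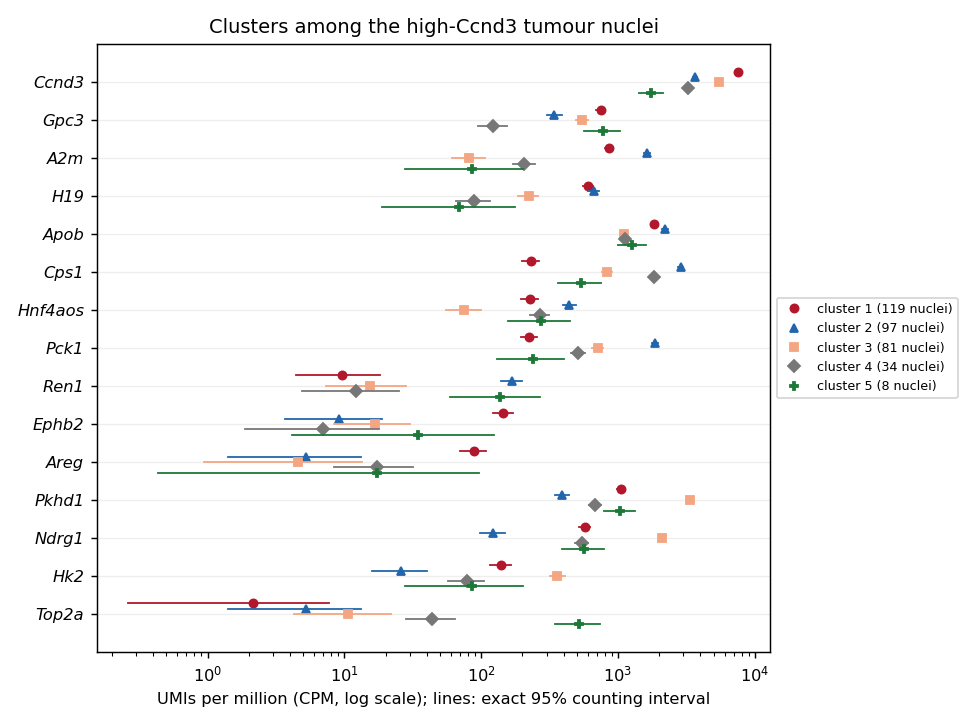
Level of 15 genes in the 5 clusters of the high-Ccnd3 tumour nuclei, as CPM on a log scale, with exact 95% counting intervals as lines. Cluster 1 has the highest Ccnd3 and Ephb2 and the lowest Cps1, cluster 2 the highest A2m, Cps1, Pck1 and Ren1, cluster 3 the highest Pkhd1, Ndrg1 and Hk2, and cluster 5 the highest Top2a.

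The 339 nuclei were not uniform. Clustered among themselves on genes outside the criteria they fell into 5 clusters of 119, 97, 81, 34 and 8 nuclei, whose levels are given as a description. At a lower resolution there were 3 clusters and at a higher resolution 10, and the nuclei of a cluster did not always stay together. At the lower resolution 118 of the 119 nuclei of cluster 1, 54 of the 97 of cluster 2 and all 81 of cluster 3 stayed together, each set in a cluster, and at the higher resolution 48, 53 and 55 of them stayed so. Ccnd3 was high in each, at 7585, 3646, 5500, 3232 and 1751 CPM in clusters 1 to 5.

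Cluster 1 was led by Ephb2 (145 CPM), Xkr4, Afp (104 CPM), Kcnip4, Relb, Cpe and Il34 (274 CPM). Csmd1 also led it, from 182 UMIs in 8 nuclei. Its Cps1 level, 229.6 CPM, lay under the 376 CPM that free RNA would give, so this urea cycle enzyme could not be told apart from free RNA there. Of genes the criteria did not use, Hnf4a, at 292 CPM against 64.3 from free RNA, and Prr16, at 1621 against 148, stood above it. Gpc3 stood at 748 and A2m at 864 CPM.

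Cluster 2 had the highest Cps1, Apob and Hnf4a of the 5. It was led by Ren1 (168 CPM), Rdh16, a retinol dehydrogenase (403 CPM), Sds, serine dehydratase (690.0 CPM), Tat, tyrosine aminotransferase (344 CPM), Gls2, Serpina3m and Ctcflos. Frmd5 was among the leading genes through 1 nucleus. Cps1 stood at 2876 and Pck1 at 1857 CPM, with A2m at 1629.6, H19 at 663 and Pkhd1 at 389 CPM. Its estimated free RNA share, 18.01%, was the lowest of the 5 clusters.

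Cluster 3 had the highest Pkhd1 of the 5 and the lowest Hnf4aos. Pkhd1 stood at 3365 CPM, against 3669 in the Pkhd1-high class, Ndrg1 at 2098 and Hk2 at 361 CPM. It was led by Dclk1, a kinase of tuft cells (347 CPM), the glutamate receptor gene Grm3 (113 CPM), Usp29, Maoa, Cacna1c, Anapc15, Chst11 and Soat1. A2m stood at 80.99 CPM and Gpc3 at 546 CPM. Hnf4aos, at 74.9 CPM against 15.4 from free RNA, stood above it. Cps1, which helped choose the nuclei, stood at 833 CPM.

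Cluster 4 held 12 of the 16 nuclei called doublets among its 34, with a median of 15726 UMIs against 6321 to 7151 in clusters 1, 2, 3 and 5. It was led by Kyat3 (578 CPM), Dock1, Zfp804a, B3galt1, Hdac9, Trpm3, Sntg2 and Foxp2, with Gpc3 at 121 CPM and Egfr at 5161 CPM. In clusters 1 and 3 Egfr stood at 475 and 523 CPM, near the 537 and 467 that free RNA would give. Without cluster 4 the log2 ratio of Egfr to Pkhd1-high nuclei was 1.33 in place of 2.28, and that to periportal nuclei -3.40 in place of -2.45. Cluster 5, 8 nuclei, was led by the division genes Melk, Neil3, Rrm2, E2f7, Diaph3, Ska3, Ncapg and Kif4. Top2a stood there at 515 CPM (348 to 735) and Mki67 at 258 CPM (144 to 425).

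Over single nuclei the most variable genes, by the variance over the mean of counts thinned to 3000 UMIs, were led by Malat1. The median over 5727 genes was 1.12. Malat1, a nuclear long RNA, had a ratio of 47.5, Ppargc1a 17.7, Pck1 13.1, Egfr 8.603 and Erbb4 8.49. Csmd1 had a ratio of 31.9 with 98.4% of its UMIs in 10 nuclei. The other 6 were Gm42418, Ctcflos, Dpyd, Gm17268, Serpina3a and Gm37350, at 8.56 to 20.5.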

How the data were processed

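Nuclear RNA of frozen mouse liver was counted as UMIs per gene and barcode. The deposited matrices hold raw UMI counts per gene and barcode, made by the authors with Cell Ranger 5.0 on mm10, per the submitters' processing notes. Strand use, the annotation and how the 2 samples were pooled are not given in the sources used here. Doublets were not removed before deposit as far as the labels say. The matrix held 17169 barcodes with a median of 2794 UMIs and 32285 genes, and 0 value columns were left unassigned. Names, members and lists were chosen with earlier results of these data known. Some genes that the rules name or that lists hold are not reported here by name, and the counts and medians of the lists include them.

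UMIs were summed per class and scaled to CPM, log2 ratios used a pseudocount of 1 CPM, and genes of a mean of at least 10 CPM were compared. Intervals are exact Poisson, conditional binomial (for folds) and Clopper-Pearson intervals at 95% from scipy 1.17.1. They cover counting error only. The calculation was tested on counts simulated with counting error alone. That test does not cover the spread between nuclei. Scrublet, in scanpy 1.11.5, ran on the 9632 barcodes of at least 2000 UMIs and called 323 (3.35%) at a threshold of 0.227, and calls were kept. The free RNA share of a class was set by 62 markers of other cell types. Clusters used 1000 variable genes, 20 components, 15 neighbours and leidenalg 0.10.2 at resolution 0.5. Named genes, outside the criteria and without ribosomal, mitochondrial and unnamed gene models, were the 20 with the largest smallest ratio to the 3 classes, the 10 with the smallest largest ratio, the 8 highest above both hepatocyte classes within 2-fold of Pkhd1-high nuclei, the 8 highest above Pkhd1-high nuclei within 2-fold of both hepatocyte classes, the 8 leading genes of each cluster, the 12 most variable genes, and list members as examples, which were picked after their values were seen. Alternatives changed the criteria, depth, scaling, pseudocount, filter, free RNA and doublets.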

Additional observations from a re-analysis of the deposited data

How the results depend on the processing

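No paired analysis was possible because nothing in the matrix ties a nucleus to a sample or replicate, and for the same reason neither sample could be left out. Values without a replicate have no test, so a limit was set for each kind of value. An alternative moved a gene's ratio where it left the counting interval. It moved a list median where the change passed the log2 of 1.5, and a share or class size where it changed more than 1.5 times. The number of nuclei was 202 with at least 6 UMIs of the tumour genes and 216 with clusters 1 and 2 alone, against 339. In those 216 the share of genes lower than in Pkhd1-high nuclei was 8.04%, against 5.07%. The other shares of higher and lower genes and the other class sizes, 133 values, moved less than 1.5 times. With a mean of at least 50 CPM the median of the oncofetal list against pericentral nuclei was -0.66, against 2.56, where fewer genes were compared. In clusters 1 and 2 alone the log2 ratio to periportal nuclei was -0.12 for Top2a and -0.29 for Lgr5, and that to Pkhd1-high nuclei -0.0668 for Kyat3, with fewer nuclei summed. Of the other list medians 1539 stayed within the limit and 44 moved, and of the named genes' ratios 4006 and 1040 did. Of 99 list medians 20 changed sign under some alternative, 4 of them reaching 0.5 on the other side. The oncofetal median against Pkhd1-high nuclei went from 0.31 to -1.84 and that of lipid uptake against pericentral nuclei from 0.17 to -0.52 with a mean of at least 50 CPM, which left fewer genes, and that of the secreted proteins against pericentral nuclei from 0.34 to -1.28 with free RNA taken out. The 20 genes above all 3 classes stayed above them under each alternative, except Apoa4 with at most 1% mitochondrial UMIs. Leaving out cluster 4, taking clusters 1 and 2 alone and leaving out each gene's highest nucleus were chosen after the data were seen. Depth limits single genes most: at a median of 6976 UMIs per nucleus, a gene with 14 UMIs over the 339 nuclei, such as Rap1gap, has an interval of 2.56 to 7.85 CPM.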

Other observations

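Several further gene groups were read in the high-Ccnd3 tumour nuclei with the same 2-fold limit and no test. Over all genes compared 13.0% were higher and 6.60% lower than in periportal nuclei, and 10.4% higher and 5.07% lower than in Pkhd1-high nuclei, so counts of 1 or 2 in a list are near those shares. Of the apoptosis regulators 4 higher and 0 lower of 13 against periportal nuclei and 1 higher and 1 lower of 13 against Pkhd1-high nuclei were counted. Bcl2, which blocks cell death, stood at 65.5 CPM, against 14.9 in periportal, 7.72 in pericentral and 113 in Pkhd1-high nuclei, and Bcl2l11, the gene of the killer protein Bim, at 59.5, 11.7, 17.4 and 125 CPM in that order. Of the genes of the insulin and insulin-like growth factor axis 3 higher and 3 lower of 15 against periportal nuclei and 7 higher and 0 lower of 15 against Pkhd1-high nuclei were counted. Igf1r, the receptor, stood at 76.2 CPM, against 16.5 in periportal, 16.9 in pericentral and 72.2 in Pkhd1-high nuclei, and Irs1, its adaptor, at 36.4, 76.8, 132 and 7.67 CPM in that order. Of the immune checkpoint and antigen presentation genes 4 higher and 2 lower of 15 against periportal nuclei and 2 higher and 1 lower of 16 against Pkhd1-high nuclei were counted, and Pvr, the ligand of the receptor Tigit, stood at 36.4 CPM, against 9.95 in periportal, 11.7 in pericentral and 76.1 in Pkhd1-high nuclei.

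In the iron list 4 higher and 4 lower of 14 against periportal nuclei and 6 higher and 0 lower of 13 against Pkhd1-high nuclei were counted. Slc40a1, the iron exporter ferroportin, stood at 220.0 CPM, against 93.7 in periportal, 62.03 in pericentral and 259.8 in Pkhd1-high nuclei, and Bmp6, a signal that raises Hamp, at 60.5, 4.396, 2.37 and 119 CPM in that order. Of the NRF2 and glutathione genes 3 higher and 0 lower of 14 against periportal nuclei and 0 higher and 0 lower of 16 against Pkhd1-high nuclei were counted, with Gclc, which limits glutathione synthesis, at 508 CPM, against 182 in periportal, 150.2 in pericentral and 342 in Pkhd1-high nuclei. Of the YAP and Hippo genes 3 higher and 0 lower of 11 against periportal nuclei and 0 higher and 2 lower of 12 against Pkhd1-high nuclei were counted, and Vgll3, a TEAD cofactor, stood at 62.5, 6.65, 4.75 and 260.5 CPM in the same order. Of the Notch genes 3 higher and 0 lower of 9 against periportal nuclei and 0 higher and 2 lower of 9 against Pkhd1-high nuclei were counted, and the ligand gene Jag1 stood at 41.1, 8.21, 10.7 and 83.04 CPM.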
